A study of Mus musculus with 48 samples.

Results

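The Cyp2 family of cytochrome P450 genes was described in mouse liver, with visceral white adipose tissue (WAT) for contrast. Its members were all gene symbols made of Cyp2, 1 letter and a number, which gave 48 of the 30055 symbols in the count table. By subfamily letter these are 15 Cyp2c, 8 Cyp2d, 8 Cyp2j, 5 Cyp2b and 4 Cyp2a genes, and 1 gene each for Cyp2e, Cyp2f, Cyp2g, Cyp2r, Cyp2s, Cyp2t, Cyp2u and Cyp2w. Female (F) and male (M) C57BL6/J mice were fed from 8 weeks of age for 12 or 2 weeks, either with a diet rich in fat, which gave 45% of its calories (HFD), or with regular chow (RD). Liver and WAT messenger RNA were sequenced in 48 libraries, 3 for each of the 16 groups set by tissue, sex, diet and weeks. The 8 liver groups are HFD and RD females and HFD and RD males at 12 weeks, and the same at 2 weeks. The 12-week and 2-week mice were separate cohorts, so weeks on the diet, age and cohort cannot be told apart.

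Cytochrome P450 enzymes are haem proteins of the endoplasmic reticulum that put oxygen into their substrates with electrons from P450 reductase. Members of the Cyp2 family oxidise drugs, solvents, plant toxins, steroids, retinoids and fatty acids, and the liver is their main site. In rodents the related members lie side by side in tandem clusters, and several are known to differ between male and female liver under the control of the sex-specific pattern of growth hormone secretion.

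Liver libraries held 50.9 to 80.1 M expected counts, with a median of 69.9 M, and WAT libraries 44.7 to 105.4 M, with a median of 63.2 M. The tissue labels were checked against markers fixed with the lists. The summed level of the hepatocyte markers was 77235 to 137329.7 CPM in liver and 37.6 to 1271 CPM in WAT. The highest hepatocyte sum in WAT was that of HFD female library 6 at 12 weeks, which also had the highest level of 14 of the 35 members tested in WAT. That of the adipocyte markers was 83.7 to 201 CPM in liver and 10722 to 39250.1 CPM in WAT. CPM here is the count scaled to library size, with TMM factors. Nothing in the labels says more of the replicates than their numbers, so p-values measure the spread between these samples. In bulk tissue fewer cells of a type and less RNA per cell cannot be told apart.

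After a filter on low counts, 39 of the 48 members were tested in liver: 14 Cyp2c, 6 Cyp2d, 4 Cyp2j, 4 Cyp2b and 4 Cyp2a genes and the lone members of 7 other subfamilies. Of these, 29 stood above the filter level in all 8 liver groups and 2, Cyp2b13 and Cyp2t4, did so in female groups alone. The 9 members not tested in liver were Cyp2b23, Cyp2c66, Cyp2d12, Cyp2d34, Cyp2j7, Cyp2j8, Cyp2j11, Cyp2j12 and Cyp2w1, of which Cyp2j12 and Cyp2w1 had 0 counts in all 24 liver libraries. Reads of near-identical members can be split between them in the authors' estimates. In the GENCODE M21 transcripts, 8 members shared over 50% of their 31-base words with other genes, namely Cyp2c40, Cyp2c67, Cyp2c69, Cyp2c68, Cyp2d11, Cyp2a4, Cyp2a5 and Cyp2d10, and 13 members shared under 5%. Values of the 8 are therefore uncertain as to the single gene, and sums over subfamilies are given below for that reason.

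Cyp2e1, which oxidises ethanol, acetone and other small molecules, was the most abundant member in liver per transcript length. It lies on chromosome 7 at 140763739 to 140774987 (GRCm38, as are all positions here), apart from the Cyp2a and Cyp2b cluster. Its mean level over 24 liver libraries was 3408 CPM per kilobase of the longest annotated transcript. The next levels were those of Cyp2c29 at 476, Cyp2d26 at 413, Cyp2f2 at 409.7, Cyp2c69 at 359.9 and Cyp2c70 at 318 CPM per kilobase. Cyp2c29 belongs to the mouse Cyp2c genes known for oxidation of drugs and arachidonic acid, Cyp2f2 activates naphthalene, and Cyp2c70 makes the muricholic acids of mouse bile. Within the other subfamilies the leading members were Cyp2a12, a bile acid and steroid hydroxylase, at 293, Cyp2j5, an arachidonic acid epoxygenase, at 272, and Cyp2b9 at 145 CPM per kilobase. Cyp2r1, a vitamin D 25-hydroxylase, had 5.14, Cyp2u1, a fatty acid hydroxylase, 0.675, and Cyp2g1, known from olfactory mucosa, 0.563 CPM per kilobase. The means hide the sexes for some members. The median of Cyp2c69 was 678 CPM per kilobase in the 12 female and 3.88 in the 12 male libraries, while that of Cyp2d9 was 19.4 in female and 572 in male libraries.

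**Figure D1:**
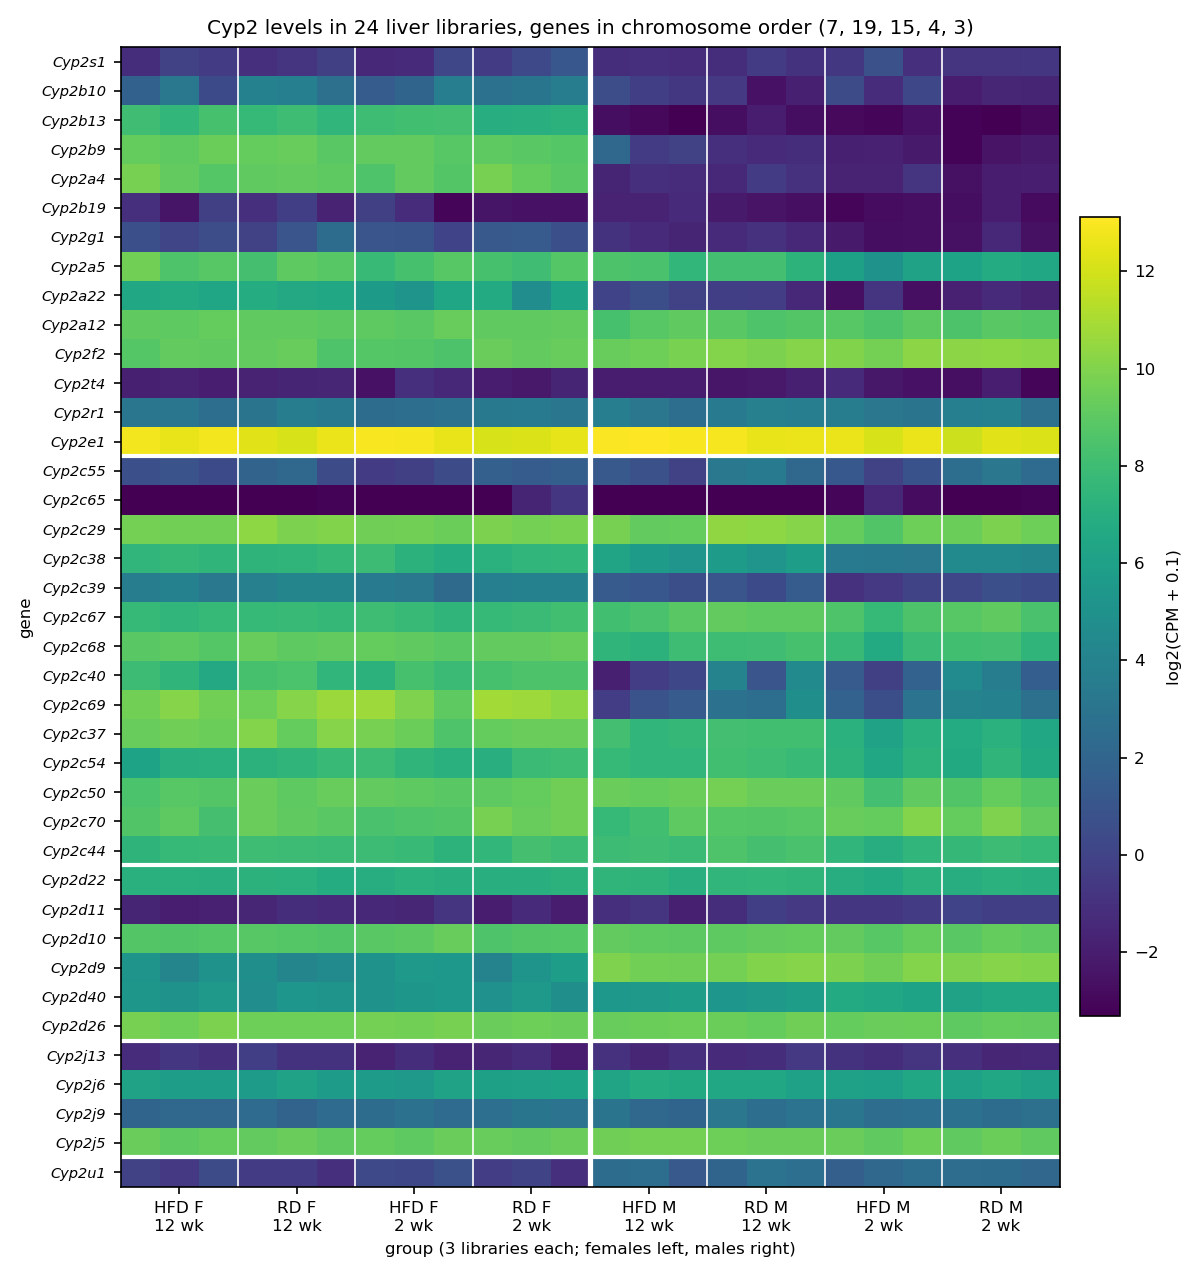
Levels of the 39 tested Cyp2 members, as log2(CPM + 0.1), in the 24 liver libraries, with female libraries on the left and male libraries on the right and genes in chromosome order. Rows such as Cyp2b13 and Cyp2a4 are high in all 12 female libraries and near the floor in all 12 male libraries, while Cyp2d9 is high in the male libraries.

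All Cyp2 members together took 1.87 ± 0.111% of the expected counts in HFD female livers and 1.44 ± 0.135% in HFD male livers at 12 weeks, and 1.76 ± 0.17% in RD female and 1.51 ± 0.0123% in RD male livers (SD, n = 3 each). At 2 weeks the shares were 1.8 ± 0.23% in HFD female and 1.18 ± 0.2% in HFD male livers, and 1.7 ± 0.0921% in RD female and 1.21 ± 0.108% in RD male livers (SD, n = 3 each).

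Sex was compared within each diet and time in liver. At 12 weeks on HFD 12 members were higher and 6 lower in females at an adjusted p under 0.05, against a background of 9.93% of all tested genes higher and 7.4% lower (17.3% either way). The RD comparison at 12 weeks had 12 higher and 4 lower, against 5.63% and 3.18% of all genes (8.81% either way). At 2 weeks on HFD 14 were higher and 5 lower, against 6.33% and 6.06% (12.4% either way), and on RD 13 were higher and 6 lower, against 5.37% and 4.45% (9.81% either way). The median log2 fold change of the tested members lay between 0.16 and 0.33 in these comparisons and that of all tested genes between 0.01 and 0.06. Over the 4 comparisons 24 of the 39 tested members were called at least once, 15 never, and 0 in both directions. The share of all tested genes called at least once, or in all 4, is not given here. Counts of members over the 4 comparisons therefore stand without a background. The counts by subfamily also stand without a background, and members that may share reads are counted as separate genes. Of the genes tested, 3 of 4 Cyp2a and 4 of 4 Cyp2b genes were higher in females at least once with 0 lower. For 3 of 6 Cyp2d genes and 2 of 4 Cyp2j genes the level was lower at least once, with 0 higher. Of the 14 Cyp2c genes tested, 6 were higher and 3 lower.

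Cyp2a4, Cyp2a22, Cyp2b9, Cyp2b10, Cyp2b13, Cyp2c37, Cyp2c38, Cyp2c39, Cyp2c40, Cyp2c68, Cyp2c69 and Cyp2g1 were higher in females in all 4 comparisons. For 11 of them, all but Cyp2b10, each of the 12 female libraries stood above each of the 12 male libraries, which 1.09% of all tested genes did. Cyp2b13, among these 11, stood above the filter level in female groups alone. Cyp2d9 and Cyp2u1 were lower in females in all 4, with no overlap between the 12 libraries of each sex, as for 1.26% of all tested genes. Among the 12 and these 2, calls ended on leaving out 1 library only for Cyp2b10 and Cyp2g1, in the HFD comparisons described below.

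Cyp2a4 and Cyp2a5 lie in the same cluster on chromosome 7, at 26307169 to 26315088 and 26835305 to 26843548. Cyp2a4 hydroxylates testosterone and Cyp2a5 hydroxylates coumarin, and 55.9% of the 31-base words of Cyp2a4 were also found in Cyp2a5. The promoters of the pair are shown because their sequences are nearly the same while their sex differences are not. Each is the stretch before the start in RefSeq on GRCm38.p6, at chr7:26306942-26307191 and chr7:26835089-26835338 on the plus strand, and capitals mark where the aligned pair differs.
Cyp2a4: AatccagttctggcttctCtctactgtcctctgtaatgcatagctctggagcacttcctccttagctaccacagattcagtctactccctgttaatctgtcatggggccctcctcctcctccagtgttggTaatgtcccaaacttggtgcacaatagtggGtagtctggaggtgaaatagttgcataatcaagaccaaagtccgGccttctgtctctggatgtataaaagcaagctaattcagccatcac
Cyp2a5: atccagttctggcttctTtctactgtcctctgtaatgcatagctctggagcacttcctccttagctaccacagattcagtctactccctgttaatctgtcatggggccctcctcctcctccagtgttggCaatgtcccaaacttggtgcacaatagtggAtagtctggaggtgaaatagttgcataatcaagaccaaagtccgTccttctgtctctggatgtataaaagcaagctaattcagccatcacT
Of 251 aligned positions 245 were identical, or 97.6%. Of the 6 that differ, 2 are gaps at the window ends, namely the first base shown for Cyp2a4 and the last for Cyp2a5.

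Cyp2a4 had 863, 571 and 446 CPM in HFD females, against 0.222, 0.377 and 0.327 CPM in HFD males at 12 weeks. On RD at 12 weeks it had 537, 582 and 519 CPM in females, against 0.263, 0.65 and 0.414 CPM in males. The lowest female library of all 12 had 384 CPM and the highest male library 0.65 CPM. Female over male, the log2 fold change was 10.98 ± 0.43 on HFD and 10.24 ± 0.42 on RD at 12 weeks, and 10.65 ± 0.43 on HFD and 12.40 ± 0.47 on RD at 2 weeks (± SE, edgeR adjusted p at most 7.3e-13). These SEs are approximate, from the test statistic.

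Cyp2a5 was called between the sexes at 2 weeks and not at 12 weeks, and whether its sex difference changed with time was not tested. At 2 weeks it had 229, 315 and 464 CPM in HFD females, against 64.1, 32.8 and 70 CPM in HFD males, and 325, 269 and 436 CPM in RD females, against 75.3, 109 and 90.2 CPM in RD males. At 12 weeks it had 769.8, 384 and 457 CPM in HFD females, against 369.8, 336 and 191 CPM in HFD males, and 304, 518 and 451 CPM in RD females, against 295, 293 and 158 CPM in RD males. All female libraries lay above all male libraries within each of these 4 comparisons, but the gap was small at 12 weeks. It had a log2 fold change of 2.59 ± 0.37 on HFD (edgeR adjusted p = 9.5e-05) and 1.91 ± 0.36 on RD (0.0019) at 2 weeks. At 12 weeks the value was 0.85 ± 0.35 on HFD (edgeR adjusted p = 0.1) and 0.77 ± 0.35 on RD (0.19), which did not pass. On RD males had a log2 difference of 1.45 between 12 and 2 weeks that did not pass either (edgeR adjusted p = 0.096). Cyp2a22, the next Cyp2a gene along the chromosome, ranged from 27 to 113 CPM in the female libraries (median 85.6 CPM) and from 0.0578 to 1.41 CPM in the male libraries (median 0.375 CPM). Cyp2a12 ranged from 483 to 641 CPM in females and 327 to 541 CPM in males, and was called in none of the 4 comparisons.

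Cyp2b13 had the largest log2 fold change of the tested members in each of the 4 sex comparisons in liver. It stood above the filter level in female groups alone, so it was tested only through the sex in which it is high. Cyp2b13 and Cyp2b9 lie at 26061497 to 26096197 and 26173411 to 26210661 on chromosome 7, in the same cluster, and both are known as female-predominant steroid-metabolising P450s of mouse liver. Their promoters, at chr7:26061245-26061494 and chr7:26173159-26173408 on the plus strand (RefSeq, GRCm38.p6), are shown because both genes move together between the sexes. Capitals mark the positions at which the pair differs.
Cyp2b13: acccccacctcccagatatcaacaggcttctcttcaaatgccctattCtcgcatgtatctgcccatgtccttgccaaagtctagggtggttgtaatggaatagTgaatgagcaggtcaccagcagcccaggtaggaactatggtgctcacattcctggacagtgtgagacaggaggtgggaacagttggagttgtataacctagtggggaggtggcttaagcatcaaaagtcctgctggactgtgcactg
Cyp2b9: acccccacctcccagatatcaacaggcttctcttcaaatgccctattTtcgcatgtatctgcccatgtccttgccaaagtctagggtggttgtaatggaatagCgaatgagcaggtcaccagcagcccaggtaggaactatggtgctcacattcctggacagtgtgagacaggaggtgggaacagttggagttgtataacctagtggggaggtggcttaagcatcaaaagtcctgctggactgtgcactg
They were identical at 248 of 250 positions, or 99.2%.

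Cyp2b13 had 273, 187 and 324 CPM in HFD females, against 0.0494, 0.0291 and 0 CPM in HFD males at 12 weeks. Over all liver libraries it ranged from 121 to 324 CPM in the 12 females and from 0 to 0.15 CPM in the 12 males. Cyp2b13 thus was at or near 0 in every male liver, also on HFD. Female over male, Cyp2b13 had a log2 fold change of 13.13 ± 0.44 on HFD and 11.17 ± 0.39 on RD at 12 weeks, and 12.72 ± 0.42 on HFD and 12.99 ± 0.46 on RD at 2 weeks (± SE, edgeR adjusted p at most 4.5e-14). In RD males at 2 weeks only 3 counts were found, against 29691 counts in RD females. Scaled for library size this was a ratio of 9164, with a counting interval of 3136 to 44442 at a confidence level of 0.95.

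Cyp2b9 had 594, 536 and 675 CPM in HFD females, against 4.5, 0.626 and 0.808 CPM in HFD males at 12 weeks. Over all liver libraries its level ran from 431 to 675 CPM in females, with a median of 553 CPM, and from 0.0139 to 4.5 CPM in males, with a median of 0.248 CPM. Female over male, its log2 fold change was 8.24 ± 0.58 on HFD (edgeR adjusted p = 9.5e-09) and 10.67 ± 0.66 on RD (1.3e-09) at 12 weeks. At 2 weeks it was 11.68 ± 0.69 on HFD (edgeR adjusted p = 7.2e-10) and 12.63 ± 0.74 on RD (4.9e-10).

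Cyp2b10, the gene best known for its induction by phenobarbital, was far lower in level in females than Cyp2b13 and Cyp2b9. It had 3.33, 9.67 and 1.17 CPM in HFD females, against 1.35, 0.715 and 0.536 CPM in HFD males at 12 weeks, and 14.7, 13.7 and 6.64 CPM in RD females, against 0.572, 0.0765 and 0.173 CPM in RD males. The HFD groups overlapped and the RD groups did not. Its log2 fold change was 2.44 ± 0.75 on HFD (edgeR adjusted p = 0.033) and 5.48 ± 0.88 on RD (0.00056) at 12 weeks. The HFD call at 12 weeks ended without HFD female library 6 or HFD male library 3 or 4, with the compared groups fitted alone, or with no filter. The HFD call at 2 weeks ended without HFD female library 5 or HFD male library 13 or 14, or with the groups alone, with an adjusted p of up to 0.102. Cyp2b19, known from skin keratinocytes, was called higher in females only on HFD at 2 weeks (log2 fold change 3.04 ± 0.89, edgeR adjusted p = 0.028), at 0.0173 to 0.755 CPM over the female and 0.0218 to 0.292 CPM over the male libraries. That call ended without HFD female library 1 or HFD male library 12, 13 or 14.

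The Cyp2c genes lie on chromosome 19, 14 of the 15 side by side and Cyp2c44 (named Cyp2c23 in GENCODE M21) apart from them at 44005022 to 44029208. The female-high members did not follow one another along the cluster without a break. In chromosome order, Cyp2c38 and Cyp2c39 were higher in females, Cyp2c67 lower, Cyp2c68, Cyp2c40, Cyp2c69 and Cyp2c37 higher, and the next members Cyp2c54, Cyp2c50 and Cyp2c70 were called in at most 1 comparison, always lower in females.

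**Figure D2:**
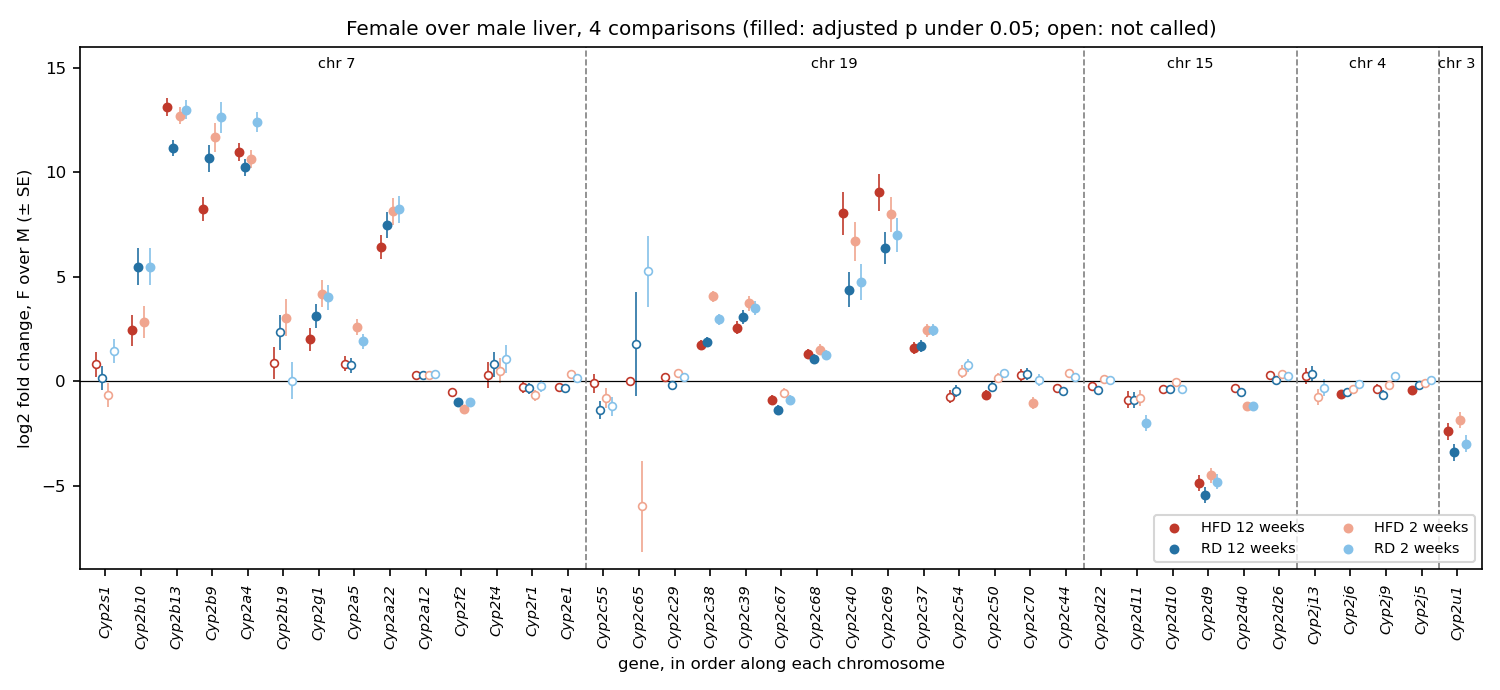
Log2 fold change, female over male, ± SE for each tested Cyp2 gene in chromosome order, in the 4 liver sex comparisons, with filled points for an adjusted p under 0.05. Cyp2c67, at -0.57 to -1.36, stands below 0 beside the female-high Cyp2c39, Cyp2c68 and Cyp2c40, and Cyp2d9 is the lowest called member, at -4.51 to -5.42. The open point of Cyp2c65 below it rests on 0 counts in HFD females and 23 in HFD males at 2 weeks.

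Cyp2c69, at 39842814 to 39886799, had 779, 1116 and 771 CPM in HFD females, against 0.693, 1.76 and 2.59 CPM in HFD males at 12 weeks. On RD at 12 weeks it had 718, 1117 and 1617 CPM in females, against 6.86, 6.12 and 28.6 CPM in males. Its log2 fold change was 9.06 ± 0.88 on HFD (edgeR adjusted p = 1.4e-06) and 6.37 ± 0.78 on RD (2.7e-05) at 12 weeks, and 7.99 ± 0.84 on HFD (4e-06) and 7.00 ± 0.80 on RD (1.1e-05) at 2 weeks. The neighbour Cyp2c40, an arachidonic acid hydroxylase at 39767071 to 39812814, shared 46.6% of its 31-base words with Cyp2c69. It ranged from 97.1 to 372 CPM in female libraries (median 279 CPM) and from 0.175 to 24.5 CPM in male libraries (median 2.7 CPM). Its log2 fold change was 8.05 ± 1.03 on HFD (edgeR adjusted p = 3.5e-05) and 4.38 ± 0.84 on RD (0.003) at 12 weeks, and 6.70 ± 0.95 on HFD (0.00013) and 4.75 ± 0.86 on RD (0.0016) at 2 weeks.

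The remaining female-high Cyp2c genes had smaller differences. Cyp2c38 ranged from 115 to 243 CPM in females and 9.65 to 75.8 CPM in males, with a log2 fold change of 1.75 ± 0.24 on HFD and 1.88 ± 0.24 on RD at 12 weeks, and 4.08 ± 0.26 on HFD and 2.96 ± 0.25 on RD at 2 weeks (edgeR adjusted p at most 3.4e-05). Cyp2c39, which hydroxylates retinoic acid, ranged from 4.98 to 17.8 CPM in females and 0.411 to 2.62 CPM in males. Cyp2c37 ranged from 386 to 1129.9 CPM in females and 70.5 to 299 CPM in males. Cyp2c68 ranged from 434 to 628 CPM in females and 107 to 315 CPM in males, the smallest fold of the 12 members, with log2 values between 1.05 and 1.52. Cyp2c68 showed no overlap between the sexes, while Cyp2b10, with larger log2 values of 2.44 to 5.48, did overlap. Cyp2g1, which lies on chromosome 7 between Cyp2b19 and Cyp2a5, ranged from 0.825 to 5.41 CPM in females and 0.0527 to 0.435 CPM in males. Its call on HFD at 12 weeks (log2 fold change 2.01 ± 0.56, edgeR adjusted p = 0.017) ended without HFD male library 3 or 4.

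Cyp2c67, at 39608842 to 39649051, ran the other way from its neighbours. It had 207, 178 and 207 CPM in HFD females, against 284, 334 and 489 CPM in HFD males, and 207, 223 and 198 CPM in RD females, against 570.0, 523 and 514 CPM in RD males at 12 weeks. The male libraries lay above the female libraries in both diets, with a log2 fold change of -0.90 ± 0.23 on HFD (edgeR adjusted p = 0.0094) and -1.36 ± 0.23 on RD (0.0007) at 12 weeks. At 2 weeks it was -0.91 ± 0.23 on RD (edgeR adjusted p = 0.015), while on HFD it was -0.57 ± 0.23 and did not pass (0.11). The call on HFD at 12 weeks ended without HFD male library 4, and that on RD at 2 weeks without RD female library 1 or 2 or RD male library 7.

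Cyp2d9, a testosterone 16-alpha-hydroxylase long used as a marker of male mouse liver, had the largest difference in the male direction among the members called. It lies on chromosome 15 at 82433437 to 82456845. It had 36.1, 17.7 and 32.5 CPM in HFD females, against 974, 791 and 753 CPM in HFD males, and 28.8, 18.1 and 22.3 CPM in RD females, against 823, 1025 and 1118 CPM in RD males at 12 weeks. At 2 weeks it had 34, 45.1 and 42.9 CPM in HFD females, against 948, 734 and 1089.6 CPM in HFD males. The highest female library, with 59.5 CPM, stood far below the lowest male library, with 734 CPM. Its log2 fold change was -4.87 ± 0.37 on HFD and -5.42 ± 0.38 on RD at 12 weeks, and -4.51 ± 0.37 on HFD and -4.80 ± 0.37 on RD at 2 weeks (edgeR adjusted p at most 3.9e-08).

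Other members with lower levels in females were Cyp2u1, Cyp2f2 and Cyp2d40. Cyp2u1, alone on chromosome 3 at 131288441 to 131303227, ranged from 0.369 to 1.61 CPM in females and from 2.34 to 7.49 CPM in males, with log2 fold changes between -1.83 and -3.40 in the 4 comparisons (edgeR adjusted p at most 0.0035). Cyp2f2 had 444, 426 and 364 CPM in HFD females, against 1010.5, 804 and 1249.6 CPM in HFD males at 2 weeks (log2 fold change -1.31 ± 0.18, edgeR adjusted p = 5.7e-05). It was called on RD at both times as well (log2 fold change -0.98 ± 0.18 at each), and on HFD at 12 weeks it had -0.52 ± 0.18 and an edgeR adjusted p of 0.053. Cyp2d40 was called at 2 weeks on HFD (log2 fold change -1.18 ± 0.20, edgeR adjusted p = 0.00049) and on RD (-1.17 ± 0.20, 0.00066).

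Members called lower in females in only 1 comparison were Cyp2d11 on RD at 2 weeks (log2 fold change -2.0 ± 0.39, edgeR adjusted p = 0.0024), Cyp2c70 on HFD at 2 weeks (-1.04 ± 0.29, 0.023), and Cyp2c50, Cyp2j5 and Cyp2j6 on HFD at 12 weeks. Cyp2j6, an intestinal and hepatic P450, had -0.62 ± 0.18 (edgeR adjusted p = 0.025), Cyp2j5 -0.43 ± 0.13 (0.029) and Cyp2c50 -0.64 ± 0.21 (0.042). The call of Cyp2c50 ended without any 1 of the 6 libraries compared, and those of Cyp2j5 and Cyp2j6 without HFD female library 6 or 7 or HFD male library 3 or 4. The call of Cyp2c70 ended without HFD female library 1 or 2 or HFD male library 14. The most abundant member, Cyp2e1, was not called between the sexes in any comparison, with log2 fold changes of -0.28 ± 0.18 on HFD and -0.30 ± 0.18 on RD at 12 weeks, and 0.33 ± 0.18 on HFD and 0.14 ± 0.18 on RD at 2 weeks.

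Macrophage and endothelial markers moved with sex in the 12-week livers. On HFD 9 of 9 tested macrophage markers and 5 of 6 endothelial markers were higher in females. The summed macrophage level was 480.0 to 542 CPM in HFD females and 119.6 to 189 CPM in HFD males, and the endothelial sum 155 to 189 CPM in HFD females and 64.1 to 101 CPM in HFD males. On RD at 12 weeks 4 of 9 macrophage markers were higher in females. Of 7 tested adipocyte markers Lpl was higher and Cfd, Cidec and Lipe were lower in females on HFD at 12 weeks, with sums of 98.5 to 113 CPM in HFD females and 131 to 201 CPM in HFD males, and Cfd was lower on RD. Markers of the liver zones moved too. At 2 weeks 4 of 10 periportal markers were higher and 1 lower in females on RD, and of 10 markers of the zone around the central vein 4 were higher on RD, and 3 higher and 1 lower on HFD. Periportal markers higher in females also numbered 2 on each diet at 12 weeks and 1 on HFD at 2 weeks. On HFD at 2 weeks Alb was higher (log2 fold change 1.16) and Fgb lower (-1.16) in females, and the hepatocyte sum was 117630 to 137330 CPM in HFD females and 77235 to 82671 CPM in HFD males. In the epithelial, mesothelial and epididymis lists at most 1 gene was called in each comparison. Their part in the Cyp2 differences was not tested.

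Since reads can be split between like members, the counts of each subfamily were also summed and tested. All rows of these fits together were called at 17.3% on HFD and 8.7% on RD at 12 weeks and at 12.4% on HFD and 9.72% on RD at 2 weeks. The Cyp2b sum was higher in females with a log2 fold change of 8.13 on HFD and 9.96 on RD at 12 weeks, and 9.48 on HFD and 10.69 on RD at 2 weeks. The Cyp2a sum was higher by 1.29, 1.24, 1.48 and 1.63 in the same order, and the Cyp2d sum was lower, at -0.63, -0.87, -0.58 and -0.87. Cyp2c as a whole, which adds female-high and male-high members, was called higher in females in 3 of the 4 comparisons, with 0.63 on HFD at 12 weeks and 0.84 on HFD and 0.99 on RD at 2 weeks. Among the 12 tested members that shared under 5% of their 31-base words with other genes, 5 were called in at least 1 sex comparison. No share of all genes is given beside that count. Cyp2u1 was lower in females in all 4, and 0 of these 12 were higher in all 4.

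Genes of 3 lists of partners and regulators were read in the same comparisons. The P450 partners, which supply electrons and haem, had 0 of 13 genes called in any liver comparison of sex or diet. Among 12 regulators of P450 genes, Nr1i3, which encodes the receptor CAR that drives the response to phenobarbital, was higher in females in 3 comparisons. It had 342 ± 62.8 CPM in HFD females and 177 ± 91.8 CPM in HFD males at 12 weeks, and 311 ± 38.4 CPM in HFD females and 68.7 ± 12.2 CPM in HFD males at 2 weeks (SD, n = 3 each). Female over male it had a log2 fold change of 0.95 ± 0.28 on HFD at 12 weeks (edgeR adjusted p = 0.025), and at 2 weeks 2.18 ± 0.29 on HFD (4.2e-05) and 1.25 ± 0.29 on RD (0.0084). Of 15 growth hormone and sex regulators, Cux2, a homeobox repressor known from female liver, was higher in females in all 4 comparisons. It had 38.5 ± 16.2 CPM in HFD females and 5.45 ± 0.408 CPM in HFD males at 12 weeks, and 25.7 ± 4.76 CPM in RD females and 4.34 ± 0.956 CPM in RD males at 2 weeks (SD, n = 3 each). Of the 15, 4 were higher and 1 lower in females on HFD at 12 weeks, 3 and 2 on RD at 12 weeks, 3 and 0 on HFD at 2 weeks and 4 and 1 on RD at 2 weeks. Trim24, a chromatin regulator, was also higher in all 4, with log2 fold changes of 0.87 on HFD and 1.47 on RD at 12 weeks, and 2.26 on HFD and 2.20 on RD at 2 weeks. None of the 3 lists had a gene called for diet in liver.

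The promoters of the Cyp2c genes were searched because female-high and male-high members stand side by side there. A window of 250 bases before to 50 bases after the RefSeq start was found for 40 of the 48 members, in 42 windows. Only the 250 bases before the start were searched, in the members and in all genes. On either strand, the letters CAAAGTCCA, a form of the site of the hepatocyte factor HNF4A, were found in 6 of the 42 windows (14.29%) and in 0.3835% of the 32851 windows of all genes. All 6 belong to Cyp2c genes, whose windows are related in sequence and so are not independent. Each is shown with 20 bases on either side, on the strand that reads CAAAGTCCA, with that run in capitals (RefSeq, GRCm38.p6).
Cyp2c40: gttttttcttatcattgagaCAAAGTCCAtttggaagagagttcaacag
Cyp2c69: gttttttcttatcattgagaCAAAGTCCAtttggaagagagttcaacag
Cyp2c68: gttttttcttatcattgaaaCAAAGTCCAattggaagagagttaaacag
Cyp2c67: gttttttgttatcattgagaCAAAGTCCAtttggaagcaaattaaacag
Cyp2c70: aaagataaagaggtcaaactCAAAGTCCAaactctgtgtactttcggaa
Cyp2c65: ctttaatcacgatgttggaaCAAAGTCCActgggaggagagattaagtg
The stretches lie on chromosome 19 at chr19:39812831-39812879 for Cyp2c40, chr19:39886816-39886864 for Cyp2c69, chr19:39741150-39741198 for Cyp2c68, chr19:39649139-39649187 for Cyp2c67 and chr19:40187322-40187370 for Cyp2c70, all on the minus strand. That of Cyp2c65 lies at chr19:39060870-39060918 on the plus strand. The stretches of the female-high Cyp2c40 and Cyp2c69 are identical, and that of the male-high Cyp2c67 also holds the run. The other letters searched, on both strands, were TTCNNNGAA (a STAT5 form) in 4.762% of member windows and 7.02% of all, TGTTTAC (a FOXA form) in 9.524% and 3.166%, ATTGATT or ATCGATT (forms bound by HNF6 and CUX2) in 9.524% and 2.992%, and AGGTCA (a nuclear receptor element) in 23.81% and 14.02%. None of these strings contains another, and a match is only a description of the letters in these windows.

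In female liver no member passed the test for diet. At 12 weeks 0 of 39 members were called between HFD and RD females (0.00629% of all tested genes were), 5 had an unadjusted p under 0.05 in edgeR, and DESeq2 called 0. At 2 weeks 0 were called in edgeR (background 0.252%), 13 had an unadjusted p under 0.05, and DESeq2 called 2. The lowest adjusted p at 2 weeks was that of Cyp2b13, which had 261, 278 and 289 CPM in HFD females, against 121, 127 and 151 CPM in RD females. The groups did not overlap, and the log2 fold change was 1.06 ± 0.24 (edgeR adjusted p = 0.069).

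In males at 12 weeks 4 members were lower and 1 higher on HFD, where 0.918% of all tested genes were lower and 0.201% higher (1.12% either way). The lower members were all Cyp2c genes. Cyp2c55, an arachidonic acid hydroxylase known from colon, had 2.3, 1.6 and 0.809 CPM in HFD males, against 9.43, 10.5 and 4.41 CPM in RD males. The groups did not overlap, and the log2 fold change was -2.36 ± 0.46 (edgeR adjusted p = 0.014). Cyp2c29, the second most abundant member per kilobase, had 875, 581 and 592 CPM in HFD males, against 1337, 1253 and 1123 CPM in RD males. Its difference was smaller than that of Cyp2c55 but also without overlap, with a log2 fold change of -0.86 ± 0.19 (edgeR adjusted p = 0.031).

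The other pair were the female-high neighbours Cyp2c40 and Cyp2c69, whose levels in males were low on either diet. Cyp2c40 had 0.175, 0.699 and 1.1 CPM in HFD males, against 16.4, 1.96 and 22.4 CPM in RD males. Cyp2c69 had 0.693, 1.76 and 2.59 CPM in HFD males, against 6.86, 6.12 and 28.6 CPM in RD males. Within each gene the groups did not overlap, and for Cyp2c40 RD library 3 lay close to the HFD libraries. The log2 fold change was -4.39 ± 0.90 for Cyp2c40 (edgeR adjusted p = 0.024) and -3.05 ± 0.69 for Cyp2c69 (0.038).

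Cyp2b9 was the member that was higher on HFD. It had 4.5, 0.626 and 0.808 CPM in HFD males, against 0.388, 0.312 and 0.345 CPM in RD males, with a log2 fold change of 2.52 ± 0.53 (edgeR adjusted p = 0.025). HFD male library 2 decides this size: it had 4.5 CPM of Cyp2b9 with only 0.0494 CPM of Cyp2b13 and 0.222 CPM of Cyp2a4, and without it the log2 fold change was 1.02 and the call ended. All 3 HFD libraries were above all 3 RD libraries.

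**Figure D3:**
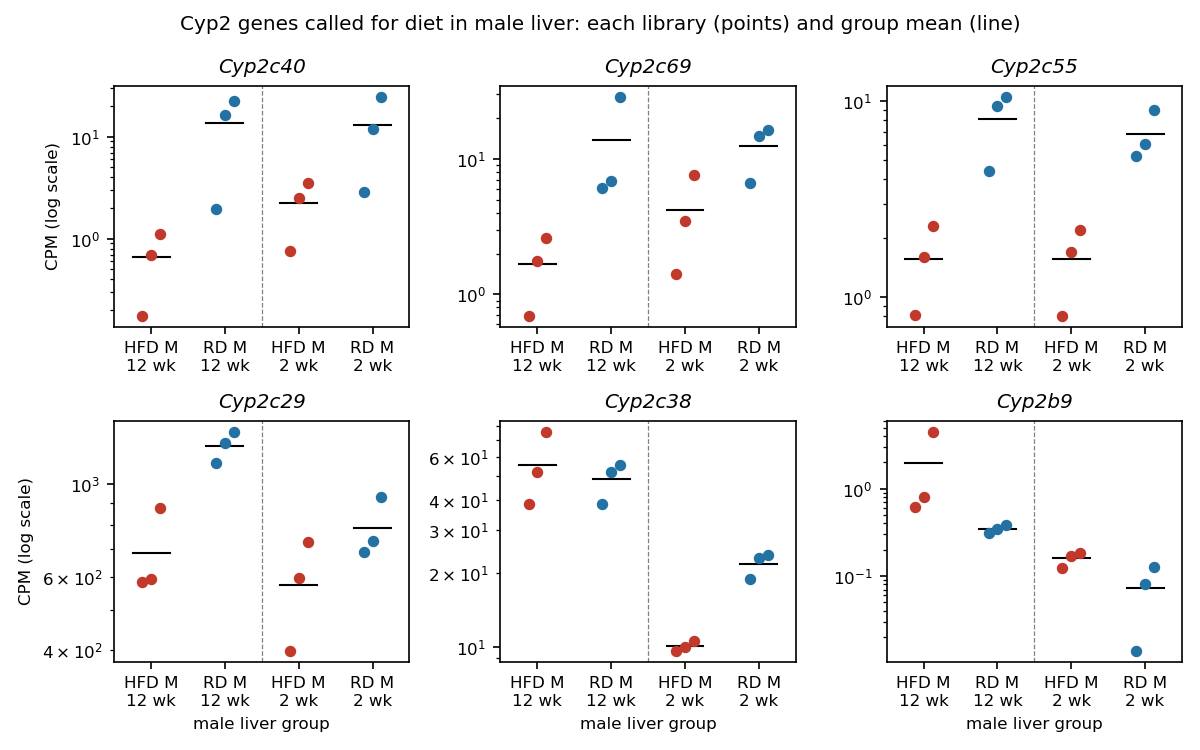
Level in CPM, on a log axis, of the 6 members called between HFD and RD in male liver, with each library as a point and HFD left of RD at 12 and at 2 weeks. For Cyp2c40, Cyp2c69, Cyp2c29 and Cyp2c55 the HFD points lie below the RD points at 12 weeks, and for Cyp2b9 the HFD library at 4.5 CPM stands above the other 2.

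These 5 calls were close to the threshold. With the 12-week male groups fitted alone none of the 5 was called, and each was also lost on leaving out some single libraries. Those of the HFD males were library 2 for Cyp2b9, libraries 3 and 4 for Cyp2c29 and Cyp2c55, and libraries 2, 3 and 4 for Cyp2c40 and Cyp2c69. Those of the RD males were libraries 2, 3 and 4 for Cyp2b9 and Cyp2c29, library 4 for Cyp2c40, library 3 for Cyp2c55, and libraries 3 and 4 for Cyp2c69. The log2 fold change of Cyp2c69 was then as small as -1.96, and its call also ended with no filter on low counts.

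Other cell markers moved in the same comparison. In HFD males at 12 weeks 4 of 9 macrophage and 3 of 6 endothelial markers were lower than in RD males. The summed macrophage level was 119.6 to 189 CPM in HFD males and 289.9 to 330.1 CPM in RD males, and the endothelial sum was 64.1 to 101 CPM in HFD males and 124 to 151 CPM in RD males. Of 7 tested adipocyte markers Cidec and Lipe were higher on HFD (log2 fold changes 2.20 and 0.80) and Lpl lower (-1.52), with sums of 131 to 201 CPM in HFD males and 115 to 122 CPM in RD males. The hepatocyte list had 0 genes called, with sums of 101441 to 104592 CPM in HFD males and 99063 to 118842 CPM in RD males. Their part in the Cyp2 differences was not tested.

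Of the 12 subfamily sums, that of Cyp2b was higher on HFD in males at 12 weeks (log2 fold change 1.97 ± 0.44, edgeR adjusted p = 0.034, background 1.1%). That call ended without HFD male library 2, the library high in Cyp2b9, without RD male library 3 or 4, with the groups alone and with no filter. In males at 2 weeks edgeR called 0 sums (background 0.328%) with 1 at an unadjusted p under 0.05, and DESeq2 called 1. In females edgeR and DESeq2 called 0 sums at 12 weeks (background 0.0063%) and at 2 weeks (0.252%), with 1 and 6 at an unadjusted p under 0.05 in edgeR.

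At 2 weeks 2 members were lower on HFD in males and 0 higher, where 0.22% of all tested genes were lower and 0.12% higher (0.34% either way). Cyp2c38 had 10.5, 9.98 and 9.65 CPM in HFD males, against 23.1, 23.7 and 18.9 CPM in RD males (log2 fold change -1.12 ± 0.24, edgeR adjusted p = 0.041). Cyp2c55 had 2.19, 0.8 and 1.7 CPM in HFD males, against 6.06, 9 and 5.27 CPM in RD males (log2 fold change -2.12 ± 0.45, edgeR adjusted p = 0.044). Both were without overlap, and Cyp2c55 was the member called in males at both times. The call of Cyp2c38 ended without any 1 of the 6 libraries, with an adjusted p of up to 0.177. That of Cyp2c55 ended without HFD male library 13 or 14 or RD male library 6, 7 or 8, with no filter, and with the groups fitted alone.

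Cyp2c55 shares 2.90% of its 31-base words with other genes. In females it was not called. It had 1.49, 1.77 and 1.17 CPM in HFD females, against 3.72, 4.36 and 1.34 CPM in RD females at 12 weeks, and 0.659, 0.747 and 1.31 CPM in HFD females, against 3.17, 2.63 and 3.05 CPM in RD females at 2 weeks. The groups overlapped at 12 weeks and not at 2 weeks. The log2 fold change was -1.09 ± 0.44 at 12 weeks (edgeR adjusted p = 1) and -1.72 ± 0.46 at 2 weeks (0.16).

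Whether diet acted unequally in the sexes was tested as an interaction, in which 0 members and 0% of all genes passed at either time. At 12 weeks 5 members had an unadjusted p under 0.05 in edgeR and DESeq2 called 1, and at 2 weeks 9 had one and DESeq2 called 0. The 12-week values were -2.43 ± 0.68 for Cyp2b9 (edgeR adjusted p = 0.37), 3.67 ± 1.14 for Cyp2c40 (0.46) and 2.68 ± 0.91 for Cyp2c69 (0.52), on the log2 scale, where the difference in males was taken from that in females. At 2 weeks Cyp2c38 had 1.12 ± 0.33 (edgeR adjusted p = 0.27). The calls in males alone are therefore not shown to differ from females.

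The diet difference was also set between 12 and 2 weeks. In females 0 members and 0% of all genes were called, 4 members had an unadjusted p under 0.05 and DESeq2 called 0. In males 0 members were called (background 0.352%), 4 had an unadjusted p under 0.05 and DESeq2 called 1. Cyp2c38 had the lowest adjusted p, with a log2 difference of 1.31 ± 0.33 (edgeR adjusted p = 0.089). Between 12 and 2 weeks on RD, 0 members and 0% of all genes were called in females, with 7 at an unadjusted p under 0.05 and 0 by DESeq2. In males 1 member was called (background 0.233%), and DESeq2 called 10. This was Cyp2c38, with 51.9, 38.4 and 55.5 CPM at 12 weeks, against 23.1, 23.7 and 18.9 CPM at 2 weeks (log2 fold change 1.15 ± 0.23, edgeR adjusted p = 0.037). The groups did not overlap, but the call ended without any 1 of the 6 libraries. The median log2 fold change of the members was 0.27 in RD males, against -0.00 for all genes.

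In liver the share of Cyp2e1 within the counts of the family was higher on HFD in each sex at each time. In females it was 41.9, 38.4 and 43.4% on HFD, against 32.7, 28.9 and 36.8% on RD at 12 weeks, and 42.4, 43.5 and 40.5% on HFD, against 28.4, 30.7 and 34.5% on RD at 2 weeks. In males it was 52.3, 54.8 and 50.5% on HFD, against 44.3, 40.6 and 41.4% on RD at 12 weeks, and 45.7, 43.9 and 41.7% on HFD, against 33.2, 37.2 and 39.2% on RD at 2 weeks. In none of these 4 comparisons did the groups overlap. The share was computed after the levels had been seen and is given without a test. Cyp2e1 is a gene of the hepatocytes around the central vein, and the summed level of 10 other markers of that zone was 4335 to 4756 CPM in HFD males and 3622 to 4047 CPM in RD males at 12 weeks, with 0 of the 10 called. In females at 12 weeks it was 4043 to 4471 CPM on HFD and 3576 to 4487 CPM on RD. At 2 weeks it was 3824 to 3938 CPM in HFD females and 4002 to 4638 CPM in RD females, lower on HFD without overlap, and 3094 to 3598 CPM in HFD males and 2996 to 3615 CPM in RD males, which overlapped. Its part in the share was not tested. Cyp2e1 alone was not called for diet, with log2 fold changes of 0.36 ± 0.18 in females (edgeR adjusted p = 1) and 0.34 in males (0.43) at 12 weeks, and 0.48 in females (0.35) and 0.30 in males (0.60) at 2 weeks.

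**Figure D4:**
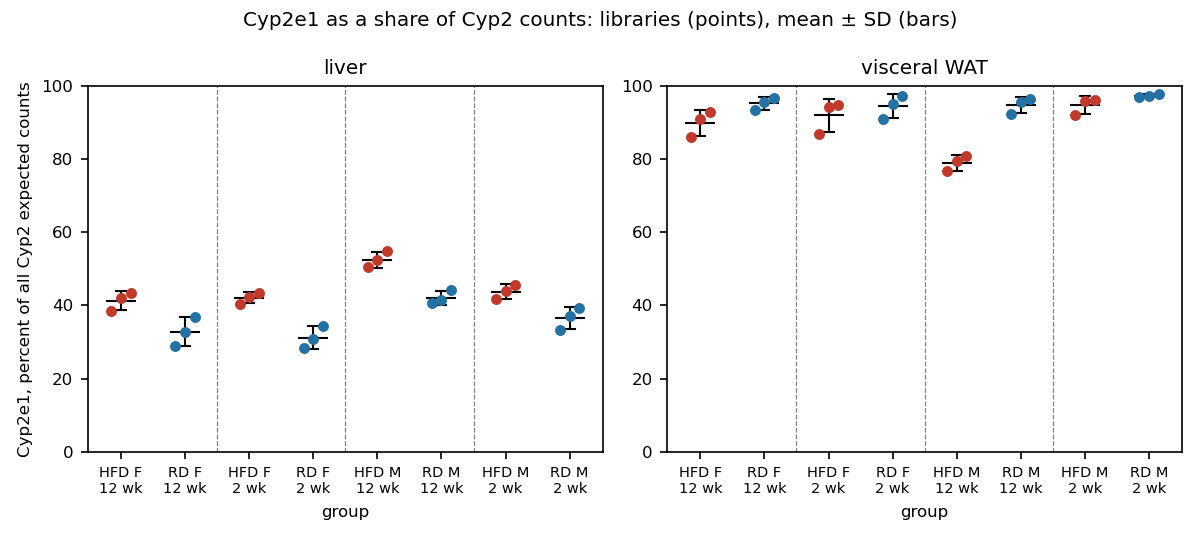
Percent of all Cyp2 expected counts that belong to Cyp2e1, for each library of liver and WAT, with the mean ± SD of 3 libraries and HFD left of RD. In liver the HFD libraries lie between 38.4 and 54.8% and the RD libraries between 28.4 and 44.3%, with no overlap within a sex and time. In WAT the HFD mean lies below the RD mean in each sex and time, and only females at 2 weeks overlap.

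Liver was compared with WAT in a joint fit of all 48 libraries, with the mean of 8 liver groups over that of 8 WAT groups. Each liver library has a WAT library of the same sex, diet, weeks and number, and the labels do not say whether both come from 1 mouse. The fit was by group, without such pairs. Over the 24 pairs r was -0.0853 to 0.134, over deviations from group means. Of the 41 members tested 34 were higher and 3 lower in liver, against 36.6% and 43.8% of all tested genes (80.4% either way). Cyp2d9 had a log2 fold change of 10.91, Cyp2c44, an arachidonic acid epoxygenase, 8.53, and Cyp2r1 3.46. Cyp2e1 had the highest level per kilobase in both tissues, 3408 CPM per kilobase in liver and 1293 in WAT, so that its log2 fold change was only 2.74 ± 0.12. The other members with the highest levels in WAT were Cyp2d22 with 9.44, Cyp2j6 with 9.36 and Cyp2f2 with 6.94 CPM per kilobase. The members lower in liver were Cyp2s1, a P450 of epithelia, with -2.94 ± 0.18, Cyp2b23 with -2.49 ± 0.55 and Cyp2j13 with -1.52 ± 0.29.

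The level set between the tissues depends on scaling. The median log2 fold change of all genes was -0.17 with TMM scaling, -0.23 with median-of-ratios scaling and -1.24 with library size alone. With library size alone, an alternative chosen after seeing the data, the log2 fold change of Cyp2e1 was 1.66, of Cyp2d22 2.47 and of Cyp2j6 1.07. Then Cyp2j9 and Cyp2t4, at -0.01 and -0.21 with TMM and not called, were called lower in liver, at -1.09 and -1.29.

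**Figure D5:**
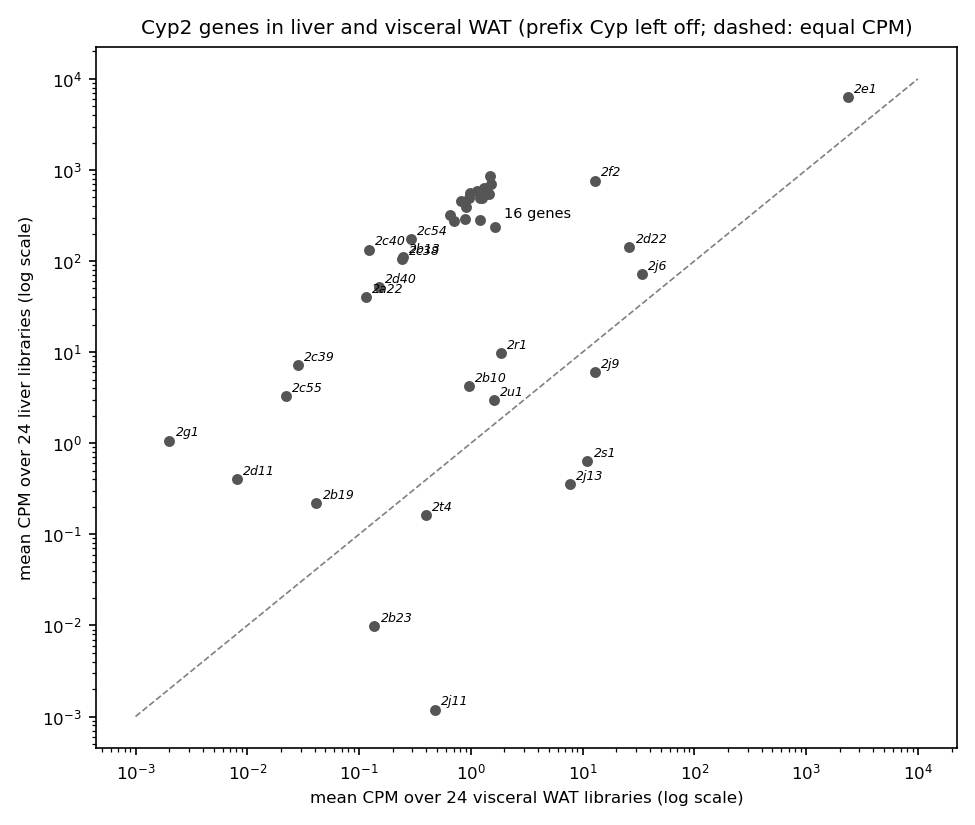
Mean CPM of each Cyp2 member in the 24 liver libraries against the 24 WAT libraries, both on log axes, for the 40 members with a mean of at least 0.1 CPM in either tissue. A dense group of 16 members is marked by its number only. Most points lie on the liver side of the diagonal, Cyp2e1 is the highest in both tissues, and Cyp2s1 and Cyp2j13 lie on the WAT side.

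In WAT of males at 12 weeks 6 of the 35 tested members, or 17.1%, were called between the diets, fewer than the 28.2% of all tested genes. The 5 members lower and 1 higher on HFD stand against 15% and 13.2% of all genes, so these counts are no result about the family. The median log2 fold change of the tested members was -1.27 in males and 2.08 in females at 12 weeks, and that of all genes -0.11 and -0.02. The hepatocyte marker sum was 78.8 to 258 CPM in HFD males and 232 to 657 CPM in RD males. In females it was 74.5 to 1271 CPM on HFD and 42.4 to 155 CPM on RD, and the diets overlapped in each sex. Hnf4a was lower in HFD males (log2 fold change -4.02, edgeR adjusted p = 0.044). The part of such markers in these medians was not tested. Cyp2e1 had 400.5, 395 and 264 CPM in HFD males, against 2171, 3813 and 2554 CPM in RD males. The groups were far apart, and the log2 fold change was -3.01 ± 0.41 (edgeR adjusted p = 6.5e-05), a call that held under every alternative run. All Cyp2 members together took 0.0455 ± 0.0102% of WAT counts in HFD males and 0.309 ± 0.0848% in RD males, and Cyp2e1 made up 79.0 ± 2.11% of the family in HFD males and 94.8 ± 2.25% in RD males (SD, n = 3 each).

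Cyp2f2 had 1.71, 3.09 and 0.838 CPM in HFD males, against 13.3, 24.6 and 5.78 CPM in RD males, without overlap (log2 fold change -2.95 ± 0.81, edgeR adjusted p = 0.014). The call ended without HFD male library 2 or 4 or RD male library 3. Cyp2c44 was higher, at 1.88, 2.23 and 2.63 CPM in HFD males, against 1.23, 0.904 and 0.579 CPM in RD males (log2 fold change 1.31 ± 0.39, edgeR adjusted p = 0.019). Cyp2b10 had 0.827, 0.751 and 0.707 CPM in HFD males, against 1.28, 1 and 3.96 CPM in RD males (log2 fold change -1.45 ± 0.50, edgeR adjusted p = 0.04). With the shared replicate number as a block, Cyp2c44 had an edgeR adjusted p of 0.107 and Cyp2b10 of 0.208, so both calls ended, while Cyp2c29, Cyp2c54 and Cyp2d9 were called lower (0.0437, 0.0453 and 0.0485). Without RD male library 4 the log2 fold change of Cyp2b10 was -0.58. The call of Cyp2b10 also ended without HFD male library 2, 3 or 4, and that of Cyp2c44 without HFD male library 4 or RD male library 3 or 4.

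Cyp2j13 and Cyp2j11 were the other lower members, and some epididymis markers were lower on HFD in the same comparison. Cyp2j13 had 0.711, 0.42 and 0.695 CPM in HFD males, against 31, 33.1 and 3.37 CPM in RD males at 12 weeks (log2 fold change -5.20 ± 1.20, edgeR adjusted p = 0.0052). Cyp2j11 had 8 counts in HFD males and 344 in RD males over 3 libraries each (log2 fold change -5.38, edgeR adjusted p = 0.044), and its call ended without any 1 of the 6 libraries or with no filter. In female WAT it had 0 counts on RD at both times and 1 count on HFD at 2 weeks. Cyp2j11 was thus tested only through male groups, in which it is high. Of 13 tested epididymis markers 4 were lower on HFD and 0 higher, and of 9 epithelial markers 6 were lower. The summed level of the epididymis markers was 2.38 to 8.51 CPM in HFD males and 3778 to 5508 CPM in RD males. In RD male libraries 2, 3 and 4 it was 3778, 3904 and 5508 CPM. At 2 weeks the male libraries with epididymis sums over 1000 CPM were HFD male library 13, with 8445 CPM, and RD male libraries 6 and 8, with 10891 and 2695 CPM. Cyp2j13 had 91.7 CPM in HFD male library 13, against 0.673 and 6.34 CPM in the other HFD males, and 4.91, 2.83 and 0.777 CPM in RD males. RD male library 7, with 2.83 CPM, had an epididymis sum of 9.71 CPM. Cyp2j13 and the sum were both low in HFD males at 12 weeks and both highest among HFD males at 2 weeks in library 13. Within the RD males their order differed. Of 9 macrophage markers 8 were higher on HFD at 12 weeks, with sums of 3394 to 4530.4 CPM in HFD males and 1189 to 1412 CPM in RD males. Their part in the Cyp2 differences was not tested.

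In female WAT at 12 weeks Cyp2b23 alone was called higher on HFD (background 2.08%), at 0.408, 0.739 and 0.46 CPM in HFD females, against 0.0324, 0.056 and 0.116 CPM in RD females. The log2 fold change was 2.93 ± 0.69 (edgeR adjusted p = 0.031), and the call ended with no filter and without any of HFD female libraries 3, 6 and 7 and RD female libraries 5 and 7. In the RD groups of WAT the mean of Cyp2b23 was at most 0.076 CPM. Cyp2b23 thus passed the filter on low counts through HFD groups, in which it is high. At 2 weeks 0 members were called for diet in either sex in edgeR, where 0.235% of all genes were called in females and 0% in males. There 5 members in females and 4 in males had an unadjusted p under 0.05, and DESeq2 called 0 in females and 1 in males.

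Between the sexes in WAT, 1 to 5 of 35 members were called in each comparison. Of these Cyp2d9 was lower in females in liver too, and Cyp2b10, lower in female WAT on RD, was higher in females in liver. At 12 weeks on HFD Cyp2e1 was higher in females (log2 fold change 1.76 ± 0.39, edgeR adjusted p = 0.016, background 2.85%), at 1117, 1175 and 1296 CPM in females, against 400.5, 395 and 264 CPM in males. That call ended without HFD female library 7 or HFD male library 4. On RD at 12 weeks Cyp2s1 was higher and Cyp2d9, Cyp2b10, Cyp2j13 and Cyp2j11 were lower in females (background 10.6%). The calls of Cyp2j13 and Cyp2j11 ended without RD female library 5, 7 or 8 or RD male library 3, and that of Cyp2j11 also without RD male library 4. As given above, Cyp2j11 was tested only through male groups. At 2 weeks on HFD Cyp2s1 was higher and Cyp2j13 and Cyp2d9 lower (background 3.8%), and on RD Cyp2c44 was higher and Cyp2d9 and Cyp2b10 lower (background 4.28%).

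Cyp2d9, a male marker of liver, was thus lower in female WAT in 3 of the 4 comparisons, at levels far below those of liver. On RD at 12 weeks it had 0 counts in females, against 4.61, 4.59 and 2.4 CPM in males, so that females were at least 83.9-fold lower, with 3 counts per library taken as the floor. On RD at 2 weeks it had 0 counts in females, against 4.03, 1.76 and 1.25 CPM in males, at least 38.7-fold lower in females. Cyp2b10 had 0.256, 0.252 and 0.338 CPM in RD females, against 1.28, 1 and 3.96 CPM in RD males at 12 weeks (log2 fold change -2.85), and 0.12, 0.449 and 0.187 CPM in RD females, against 2.03, 1.44 and 2.61 CPM in RD males at 2 weeks (-3.03). In these members the sexes did not overlap. Cyp2s1 had 18.8, 8.63 and 22.5 CPM in RD females, against 7.57, 5.13 and 3.92 CPM in RD males at 12 weeks (log2 fold change 1.59), and 31.7, 16.3 and 16.3 CPM in HFD females, against 6.81, 8.05 and 7.44 CPM in HFD males at 2 weeks (1.53). Cyp2c44 had 2.33, 3.56 and 1.5 CPM in RD females, against 0.402, 0.267 and 0.504 CPM in RD males at 2 weeks (log2 fold change 2.63 ± 0.41, edgeR adjusted p = 0.0015). The call of Cyp2s1 on HFD at 2 weeks ended without HFD female library 1 or any HFD male library, and that on RD at 12 weeks without RD female library 5 or 8 or RD male library 3 or 4. On HFD at 2 weeks the call of Cyp2d9 ended without HFD female library 1 or HFD male library 14, and that of Cyp2j13 without HFD female library 1 or HFD male library 13, the library with the epididymis markers, where its log2 fold change was -2.53. HFD female library 1 also had the lowest adipocyte sum, 10722 CPM, and an epithelial marker sum of 2017 CPM.

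Markers of other cells moved with sex in the same WAT comparisons. On RD at 12 weeks the epididymis sum was 2.54 to 4.78 CPM in females and 3778 to 5508 CPM in males, with 4 of 13 tested markers lower in females. The hepatocyte sum was 42.4 to 155 CPM in RD females and 232 to 657 CPM in RD males at 12 weeks, without overlap, and 1 of 8 markers, Hnf4a, was lower in females (log2 fold change -5.60, edgeR adjusted p = 0.034). At 2 weeks 6 of 13 epididymis markers were lower in females on RD and 2 on HFD. The hepatocyte sums, which overlapped between the sexes, were then 46.5 to 690 CPM in RD females and 87.6 to 251 CPM in RD males, and 37.6 to 218 CPM in HFD females and 107 to 163 CPM in HFD males. On HFD at 12 weeks, where Cyp2e1 was higher in females, 3 of 9 macrophage markers were lower in females. Their part in the Cyp2 differences was not tested.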

How the data were processed

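The deposited gene table holds expected counts (estimated counts per gene symbol) made by the authors. Per the submitters' processing notes, kallisto, edgeR, DESeq2 and the build GRCm38 were used, and the sources used here do not give their roles or how transcripts were added up. After rounding, the 24 libraries of a tissue were modelled together as 8 groups by edgeR 4.0.16 (filterByExpr by group, TMM, robust glmQLFit and glmQLFTest) with limma 3.58.1 in R 4.3.3, and tables were handled in Python 3.11.15. The joint fit took all 48 libraries. The threshold was an adjusted p (Benjamini-Hochberg) under 0.05 over all genes of a comparison, 15897 in liver and 18325 in WAT. CPM were TMM-scaled within a tissue, and the SE is the absolute log2 fold change over the square root of F. The counting interval and the floor of 3 counts per library cover counting error only.

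The members and lists were chosen with earlier results of these data known. Values were printed for the called members with the largest fold changes in each comparison and the most abundant member of each subfamily, by a fixed rule, and other members were added by name where a count was small. The test was tested on simulated counts. Replicates differed by more than sampling noise. Libraries of one animal number correlated in all 3 pairs of 12-week male WAT (r = 0.108 to 0.154 over deviations from group means), where the pairing comes from the data and not from the labels. The numbers paired no other groups compared. Alternatives were DESeq2 1.42.0, median-of-ratios scaling, no filter, the compared groups alone, the number as a block, and each library left out in turn. Positions come from GENCODE M21 and sequences from RefSeq on GRCm38.p6.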

Additional observations from a re-analysis of the deposited data

How the results depend on the processing

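Of 99 calls of a member in a comparison, 69 held under every alternative run. Over the 1099 values from these alternatives 954 kept their direction and their side of the threshold, 145 kept the direction and missed the threshold, and 0 changed direction, and the cause of the losses was not tested. The counts of members called between the sexes in liver stayed within 1.5 times under each alternative. With DESeq2 the counts were 2 for diet in females at 2 weeks (0 in edgeR), 1 for the sex by diet interaction at 12 weeks (0), 1 for diet by time in males (0) and 10 for 12 over 2 weeks in RD males (1). In WAT DESeq2 called 6 and 11 members between the sexes at 12 weeks on HFD and RD (1 and 5), 5 and 7 at 2 weeks (3 and 3), 6 for diet in females at 12 weeks (1) and 1 for diet in males at 2 weeks (0), and in liver 1 subfamily sum for diet in males at 2 weeks (0). With the compared groups alone the counts were 0 for diet in male liver at 12 weeks (5), 1 at 2 weeks (2), 2 for 12 over 2 weeks in RD males (1), 2 and 0 between the sexes in HFD WAT at 12 and 2 weeks (1 and 3), and 0 subfamily sums for diet in males at 12 weeks (1). With no filter they were 1 for diet in males at 2 weeks (2), 0 for diet in female WAT at 12 weeks (1) and 0 subfamily sums for diet in males at 12 weeks (1). With the shared number as a replicate block, 0 members (5) and 0 subfamily sums (1) were called for diet in male liver at 12 weeks, 1 member in female liver at 2 weeks (0), and 7 in male WAT at 12 weeks (6). Outside male WAT at 12 weeks libraries of one number did not correlate in all pairs (r from -0.112 to 0.127 in male and -0.0488 to -1.52e-05 in female liver). The block changed no other call of a member counted here. Leaving out 1 library in turn gave 1 to 3 members for diet in male liver at 12 weeks (5), 0 to 1 at 2 weeks (2), 0 to 1 for diet by time in males (0), 0 for 12 over 2 weeks in RD males (1), 2 to 5 for diet in male WAT (6) and 0 to 1 in female WAT at 12 weeks (1). Between the sexes in WAT it gave 0 to 1 on HFD (1) and 2 to 6 on RD (5) at 12 weeks and 0 to 4 on HFD at 2 weeks (3), and 4 to 8 subfamily sums in HFD liver at 12 weeks (7) and 0 to 1 for diet in males (1). Library size scaling of the joint fit, chosen after seeing the data, called 39 members (37).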
